A study of Mus musculus with 47 samples.

Results

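Major urinary protein (MUP) genes were followed in the liver and the spermatozoa of male mice whose fathers did or did not lack Scml2, a Polycomb gene on the X chromosome. The members are Mup1, Mup2, Mup3, Mup4, Mup5, Mup7, Mup20 and Mup21, which were chosen by symbol and are all listed in each of the 10 count files. They are 8 of 23416 genes kept, and 12 further symbols in the files begin with Mup. Because copies of these genes are nearly identical and share reads, each is given alone and as a sum in liver.

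Ctrl-F1 and KO-F1 males were obtained by intracytoplasmic sperm injection (ICSI), in which testicular sperm of wild-type or Scml2-KO fathers was injected into oocytes of BDF1 females. A son takes his X chromosome from his mother, so KO-F1 males carry no Scml2 mutation, and both F1 groups share the ICSI procedure. KO-F2 males came from natural mating of KO-F1 males with C57BL/6 females. RNA-seq was done on livers of both F1 groups and on spermatozoa of all 3 groups, with 2 replicates per group and all males aged 8 to 12 weeks. The labelled strain is BDF2 for F1 and BDF3 for F2 males. BDF1 females are hybrids of C57BL/6 and DBA/2, whereas the fathers were C57BL/6, so an F1 male could inherit the MUP cluster of either strain from his mother. These alleles were not typed, and their part in any value below was not tested.

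MUPs are small barrel-shaped carrier proteins of the lipocalin family. The mouse liver makes them in large amounts, more so in males, and their transcription depends on pulses of growth hormone acting through STAT5, as well as on thyroid hormone, glucocorticoids and androgens. They pass from the blood into the urine, where they bind volatile pheromones and release them slowly, and some act as scent signals themselves: the product of Mup20, named darcin, attracts females and promotes aggression between males.

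In RefSeq's annotation of GRCm38.p6 (mm10), the build to which the authors aligned their reads, the family forms 1 cluster on chromosome 4 between bases 59956804 and 62150841. It spans 2194038 bp and holds 44 annotated Mup genes and pseudogenes, of which 24 are coding and 19 are pseudogenes. All 8 members lie on the minus strand, each with 6 coding exons. Mup4 opens the cluster at chr4:59956804-59960667 and Mup21 closes it at chr4:62147832-62150841. Mup7 (chr4:60066469-60070475), Mup2 (chr4:60135913-60139977) and Mup1 (chr4:60498012-60501960) lie in its first part, and Mup5 (chr4:61831319-61858043), Mup20 (chr4:62011337-62054143) and Mup3 (chr4:62083476-62087317) in its last. Over the 28 pairs of members, coding sequences were between 82.2% and 99.4% identical, with a median of 88.9%. The stretch below has the length of 1 read (75 bases) and starts at coding base 64 of Mup1. It joins the last 33 bases of exon 1 to the first 42 of exon 2 and is shown because it separates all 8 members. Capitals mark bases that differ from Mup1.
Mup1: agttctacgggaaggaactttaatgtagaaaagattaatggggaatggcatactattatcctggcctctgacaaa
Mup2: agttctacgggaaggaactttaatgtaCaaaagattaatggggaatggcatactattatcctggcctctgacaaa
Mup7: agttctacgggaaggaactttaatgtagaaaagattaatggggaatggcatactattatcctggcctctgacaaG
Mup20: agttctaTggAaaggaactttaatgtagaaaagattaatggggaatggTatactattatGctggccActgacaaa
Mup4: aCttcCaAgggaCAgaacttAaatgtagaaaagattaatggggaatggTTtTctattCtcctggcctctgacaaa
Mup5: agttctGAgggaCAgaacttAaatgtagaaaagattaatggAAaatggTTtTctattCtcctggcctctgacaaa
Mup3: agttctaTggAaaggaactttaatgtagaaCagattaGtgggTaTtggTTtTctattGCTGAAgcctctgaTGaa
Mup21: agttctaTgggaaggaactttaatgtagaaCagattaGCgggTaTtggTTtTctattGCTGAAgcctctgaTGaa

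Even in this stretch Mup2 and Mup7 each differed from Mup1 by 1 base. Over the whole coding sequence, Mup1 and Mup2 differed at 3 of 543 bases and Mup1 and Mup7 at 6. Mup3 and Mup21 were nearest to each other, at 94.8% identity, and Mup4 and Mup5 at 92.1%. The authors counted uniquely aligned reads, so the windows of 75 bases in each RefSeq transcript that occur at only 1 place of the cluster were counted. These made up 98.8% of the windows of Mup4, 91.5% of Mup3, 91.2% of Mup5 and 90.0% of Mup21. The shares were 19.4% for Mup20, 14.7% for Mup7, 9.50% for Mup1 and 0% for Mup2. A read of Mup3, Mup4, Mup5 or Mup21 could therefore usually be placed, whereas most reads of Mup1, Mup2, Mup7 and Mup20 match more than 1 place. Reads that did not align uniquely were not counted, so a sum over members leaves them out as well. It gives more weight to Mup3 than to Mup7 or Mup20.

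Liver libraries held 11339729 to 14278900 counts and sperm libraries 1503733 to 11462105, so 3 counts, taken as the floor of detection, stand for 0.210 to 0.265 CPM (counts relative to the library total) in liver. All 10 hepatocyte markers had more than 3 counts in every liver, with a summed level of 118849 to 125172 CPM, and at most 35 summed counts in spermatozoa. Rn45s, a ribosomal RNA gene, held 0.636% and 0.706% of the counts in the Ctrl-F1 livers and 1.21% and 1.59% in the KO-F1 livers. Scml2 had 0 counts in all 4 livers and 0 to 18 in spermatozoa, and the males are wild-type for it, so it does not check the labels. In these bulk samples fewer cells of a type and less RNA per cell cannot be told apart.

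The first question was whether liver MUP expression differed between sons of Scml2-KO and of wild-type fathers. Together the 8 members took 2.34% and 1.69% of all counts in Ctrl-F1 replicates 1 and 2, and 1.77% and 2.26% in KO-F1 replicates 1 and 2. The 95% Wilson intervals of these shares, which cover counting error only, were all narrower than the gaps between libraries (for example 2.33% to 2.34% and 2.25% to 2.27% for the 2 highest). Scaled by edgeR's trimmed mean of M values (TMM), the sum was 23734 and 15924 CPM in Ctrl-F1 and 17635 and 23747 CPM in KO-F1 livers. The highest libraries were thus 1 of each group, and the groups overlapped. The means were 19829 ± 5522 CPM (SD, n = 2) and 20691 ± 4321 CPM (SD, n = 2), a log2 ratio of KO-F1 to Ctrl-F1 of 0.06. On the log2 scale the SD between replicates was 0.41 for Ctrl-F1 livers and 0.30 for KO-F1 livers, larger than the difference. No test was run on the sum.

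Mup3 held most of these counts, from which reads without a unique place were left out. Its level was 14642 and 11314 CPM in Ctrl-F1 livers and 14235 and 15620 CPM in KO-F1 livers, the smallest fold between replicates of any tested member in both groups. Its share of the summed Mup counts was 61.7% and 71.1% for the Ctrl-F1 replicates, against 80.7% and 65.8% for the KO-F1 replicates. Without Mup3 the sum of the other members was 9092 and 4610 CPM in Ctrl-F1 and 3401 and 8126 CPM in KO-F1, over 2-fold between the highest and lowest library, and the log2 ratio of the means was −0.25. The sum over the 20 symbols gave a log2 ratio of 0.04.

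**Figure D1:**
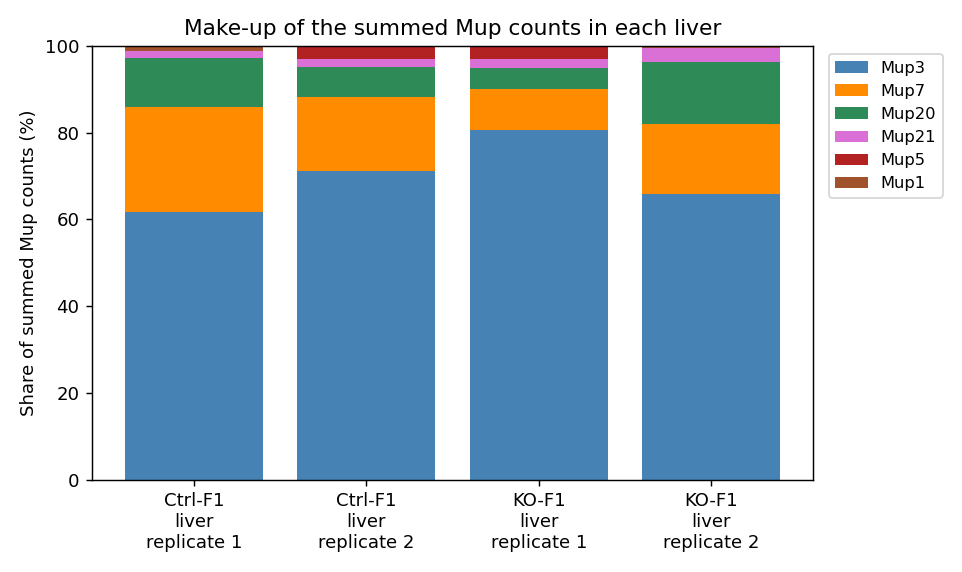
Share of the summed Mup counts (vertical axis, percent) held by each member in each of the 4 livers (bars); Mup2 and Mup4, at most 0.0264% each, are too small to be drawn. Mup3 runs from 61.7% to 80.7%, and Mup5 is visible only in Ctrl-F1 replicate 2 and KO-F1 replicate 1, at 2.67% and 2.85%.

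Mup7 and Mup20 were next. Mup7 was at 5732 and 2751 CPM in Ctrl-F1 and at 1652 and 3849 CPM in KO-F1 livers. Mup20, the darcin gene, was at 2680 and 1070 CPM in Ctrl-F1 and at 850 and 3422 CPM in KO-F1 livers. In both, Ctrl-F1 replicate 1 and KO-F1 replicate 2 were high and the other two livers low. The same order held for Mup1, at 260 and 51.9 CPM in Ctrl-F1 and 46.0 and 90.9 CPM in KO-F1, and for Mup21, at 403 and 308 CPM in Ctrl-F1 and 349 and 755 CPM in KO-F1. Mup4 was low, at 6.26 and 2.76 CPM in Ctrl-F1 and 2.12 and 2.96 CPM in KO-F1, and Mup2 was at 0 counts but for 2 counts in KO-F1 replicate 1, under the floor.

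Mup5 ran the other way. Ctrl-F1 replicates 1 and 2 had 141 and 6329 counts (10.0 and 425 CPM), and KO-F1 replicates 1 and 2 had 6148 and 79 counts (502 and 7.32 CPM). Ctrl-F1 replicates were 42.4-fold apart and KO-F1 replicates 68.6-fold, with 1 high and 1 low liver in each group. Over all genes tested the median fold between replicates was 1.17 between the Ctrl-F1 and 1.21 between the KO-F1 livers. Mup5 was 1 of 7 among 11505 genes (0.0608%) whose replicates were over 10-fold apart in both groups. The others, named after their values were seen, were Corin, Cyp4a14, Dab1, Gm8801, Hdac9 and Moxd1, and only Mup5, Cyp4a14 and Moxd1 of the 7 reached 100 CPM in any liver. Cyp4a14, a fatty acid hydroxylase gene, was at 14.2 and 143 CPM in Ctrl-F1 and at 72.2 and 1.20 CPM in KO-F1, high in the same livers as Mup5. Moxd1, a monooxygenase gene with male-biased liver expression, was at 144 and 3.90 CPM in Ctrl-F1 and at 0 and 96.2 CPM in KO-F1, high in the same livers as Mup7 and Mup20.

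**Figure D2:**
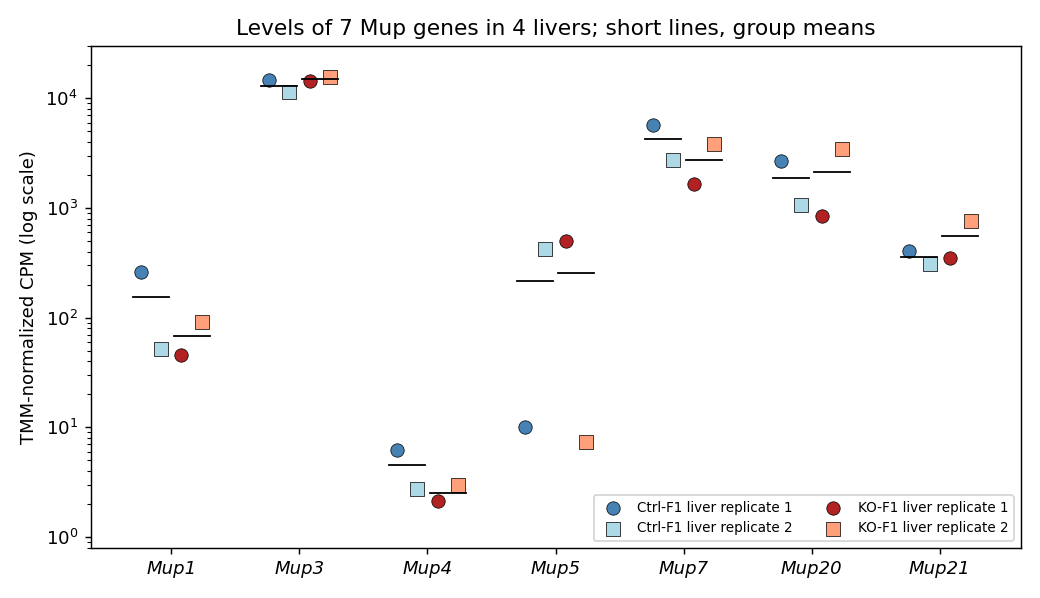
TMM-normalized CPM (vertical axis, log scale) of the 7 tested members in each liver (points, coloured by library), with the mean of each group of 2 as a short line. Each gene has Ctrl-F1 replicate 1 and KO-F1 replicate 2 on the same side of the other livers, on the high side for 6 genes and on the low side for Mup5, at 10.0 and 7.32 CPM.

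Of the 7 members that passed the filter on low counts (all but Mup2), edgeR's quasi-likelihood test called 0 at the thresholds used (at least 2-fold, with adjusted p below 0.01), as it did 0% of the 11505 genes tested. None had an unadjusted p under 0.05, which 9.41% of all genes had. DESeq2 also called 0 members, but it gave Mup4 no adjusted p and so could not call it. It called 0.271% of the 7379 genes to which it gave an adjusted p. The groups overlapped for all 7, whereas 41.6% of all genes tested had groups that did not overlap. The highest libraries were Ctrl-F1 replicate 1 and KO-F1 replicate 2 for 6 of the 7 members and for 16.6% of all genes, although members that share reads are not independent of each other. In 3 of the 7 (Mup5, Mup7 and Mup20) the replicates of both groups were over 2-fold apart, as in 2.39% of all genes.

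No log2 fold change of a member was as large as 2 standard errors. Mup1 had a log2 fold change of −1.19 ± 0.64 (SE, adjusted p = 0.588 in edgeR) and Mup21 of 0.63 ± 0.33 (adjusted p = 0.581), the smallest adjusted p of the 7. Mup7 was at −0.63 ± 0.44 and Mup4 at −0.83 ± 0.49. Mup3 was at 0.20 ± 0.23, Mup20 at 0.19 ± 0.61 and Mup5 at 0.23 ± 1.65, with adjusted p-values of 0.814, 0.948 and 0.977 in edgeR. These differences were thus not larger than the spread between replicates, and the width of their errors leaves changes of 2-fold in several members undecided at n = 2.

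Single livers set the direction of most members. Without Ctrl-F1 replicate 1, the log2 fold change was 0.40 for Mup1, 0.00097 for Mup7 and −0.74 for Mup5. Without Ctrl-F1 replicate 2, which leaves 1 control, Mup1 was at −1.92, Mup5 at 4.66 and Mup20 at −0.32. For Mup5 that fit sets KO-F1 livers at 502 and 7.32 CPM against 1 control at 10.0 CPM. Its spread comes from the KO-F1 livers, drawn by edgeR toward values shared over genes. Its p-values therefore do not measure the spread of Mup1 or Mup5 and are left out here. Over all alternatives the adjusted p ran up to 0.881 for Mup1 and to 0.999 for Mup5. Without KO-F1 replicate 1 Mup5 was at −4.88, and without KO-F1 replicate 2 Mup20 was at −1.14 and Mup21 at −0.027. Mup3 and Mup4 kept their direction without any 1 liver, at 0.03 to 0.40 and −1.29 to −0.12.

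**Figure D3:**
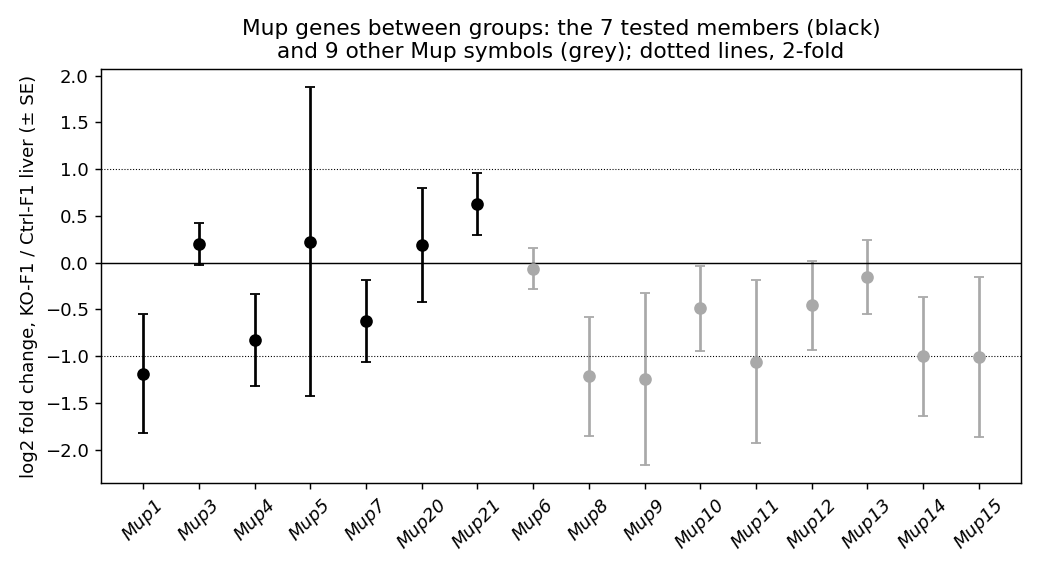
Log2 fold change of KO-F1 over Ctrl-F1 liver with its standard error (vertical axis) for the 7 tested members (black) and the 9 other tested Mup symbols (grey). No member lies beyond 2-fold by more than its error, and Mup5, at 0.23, has the widest error, 1.65.

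The order of levels depended on how the shared sequence was treated. Per 1000 bases of transcript, the mean over the 4 livers was 15282 CPM for Mup3, 3524 for Mup7, 2261 for Mup20, 601 for Mup21, 271 for Mup5, 121 for Mup1, 4.01 for Mup4 and 0.0451 for Mup2. The ranges over livers overlapped between Mup7 and Mup20, between Mup20 and Mup21, between Mup21 and Mup5 and between Mup5 and Mup1. Mup3 and Mup7 did not overlap, nor did Mup1 and Mup4. Per 1000 windows found at 1 place, a scale added after the data were seen, Mup7 came first at 25895 CPM, followed by Mup3 at 18168, Mup20 at 12695 and Mup1 at 1384. The ratio of Mup7 to Mup3 was between 0.107 and 0.360 in the 4 livers per 1000 bases, and between 0.660 and 2.23 per 1000 such windows. It was above 1 in 3 livers on the second scale. That scale takes every counted read to come from windows found at 1 place. Mup15 has 0 such windows and yet had 48 to 458 counts, so the place of Mup7 above Mup3 is uncertain. Mup21, Mup5 and Mup4, whose sequences are mostly found at 1 place, moved little, to 740, 324 and 4.43 CPM.

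**Figure D4:**
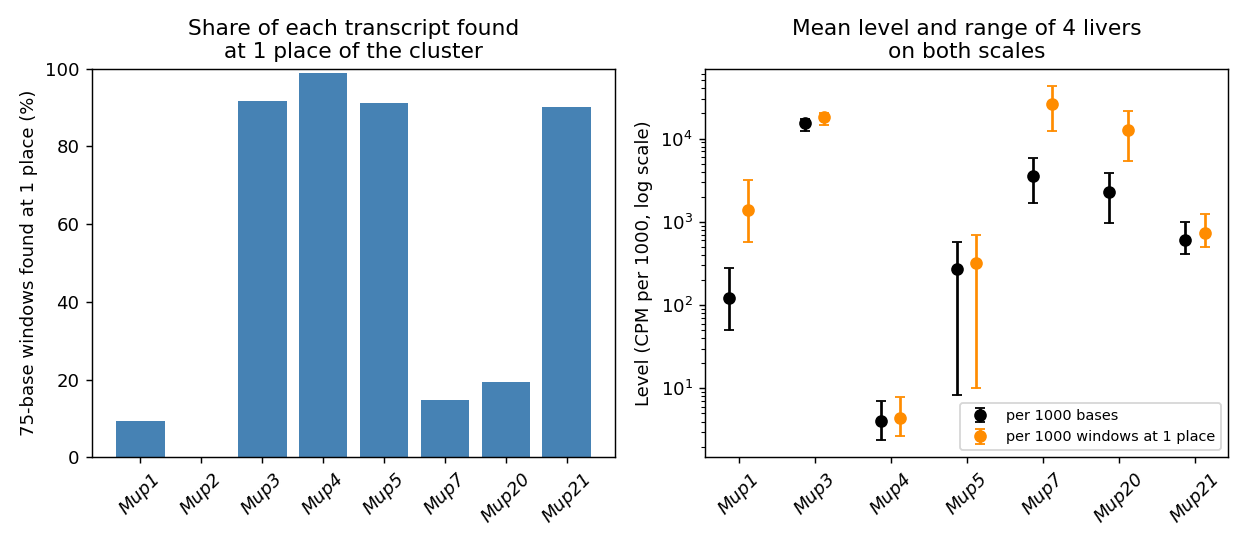
Left, share of the 75-base windows of each member's RefSeq transcript found at 1 place of the cluster (bars, percent). Right, mean level over 4 livers (points) with the lowest and highest liver (whiskers) in CPM per 1000 bases (black) and per 1000 such windows (orange) on a log scale: Mup7 moves from 3524 to 25895 and Mup3 from 15282 to 18168.

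The other 12 Mup symbols show where further reads of the cluster fell. Members held between 93.2% and 96.1% of the counts over all 20 symbols. Of the 12, Mup6 and Mup14 held between 82.3% and 87.9% of the remaining counts. Mup6, with 99.1% of its windows at 1 place, was at 638 and 450 CPM in Ctrl-F1 and 446 and 594 CPM in KO-F1 livers. Mup14, with 5.40% of its windows at 1 place, was at 794 and 175 CPM in Ctrl-F1 and at 145 and 338 CPM in KO-F1. Mup12 was between 63.0 and 224 CPM, Mup8, Mup9, Mup10, Mup11, Mup13 and Mup15 were at or below 32.6 CPM, Mup17 had at most 5 counts, and Mup16 and Mup19 had 0 counts in every liver. Mup15 had 48 to 458 counts although no window of its RefSeq transcript occurs at only 1 place. DESeq2 gave Mup9, Mup10 and Mup11 no adjusted p and so could not call them. The log2 fold changes of the 9 that passed the filter were all below 0, from −1.24 to −0.06, with overlapping groups in all 9 and 0 called by edgeR or DESeq2. That direction rested on Ctrl-F1 replicate 1, without which 7 of the 9 were above 0, and edgeR called 4 (Mup8, Mup12, Mup14 and Mup15) without Ctrl-F1 replicate 2, where 0.435% of all genes were called. For 8 of the 9, all but Mup9, the highest livers were again Ctrl-F1 replicate 1 and KO-F1 replicate 2.

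Genes around MUP expression were then described from lists. Of 12 genes of growth hormone and STAT5 signalling, 0 were called by edgeR. An unadjusted p under 0.05 was found for 0 of them, against 9.41% of all genes. Their median log2 fold change was 0.08, that of all genes tested being −0.01. Socs2, a feedback inhibitor induced by STAT5, was at 10.1 and 2.89 CPM in Ctrl-F1 and 26.4 and 8.61 CPM in KO-F1 (log2 fold change 1.44 ± 0.62, adjusted p = 0.529). Bcl6, a repressor of STAT5 targets, was at 15.6 and 39.3 CPM in Ctrl-F1 and 10.8 and 18.1 CPM in KO-F1 (−0.94 ± 0.42). Igf1, the growth factor that growth hormone induces in liver, was at 571 to 906 CPM and the growth hormone receptor gene Ghr at 633 to 816 CPM, and Ptpn2 had a log2 fold change of 0.41 ± 0.21. For 0 of the 12 were the highest livers those of Mup7 and Mup20, against 16.6% of all genes. So few genes cannot set the list apart from that share.

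Of 14 regulators of Mup transcription, 0 were called, and, against 9.41% of all genes, 1 had an unadjusted p under 0.05. This was Foxa2, a forkhead factor of hepatocytes, at 22.0 and 18.6 CPM in Ctrl-F1 and 37.6 and 27.6 CPM in KO-F1 (log2 fold change 0.69 ± 0.20, adjusted p = 0.484 in edgeR). Zhx2, a repressor of several fetal liver genes that also affects Mup expression, was at 9.63 to 13.6 CPM (−0.34 ± 0.21). Hnf4a, a nuclear receptor of the hepatocyte programme, was at 473 to 556 CPM, and the circadian factors Dbp and Nfil3 were at 0.36 ± 0.17 and −0.37 ± 0.23.

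Among 19 male-biased liver genes, 0 were called and the median log2 fold change was 0.00. The highest livers were Ctrl-F1 replicate 1 and KO-F1 replicate 2 for 11 of the 19, against 16.6% of all genes. Serpina1e, a protease inhibitor gene and the one with the highest CPM, was at 14013 and 7134 CPM in Ctrl-F1 and at 4657 and 17297 CPM in KO-F1. Hsd3b5, a steroid dehydrogenase gene, was at 419 and 311 CPM in Ctrl-F1 and 521 and 507 CPM in KO-F1 (0.49 ± 0.18, adjusted p = 0.509 in edgeR). The cytochrome P450 genes Cyp4a12a and Cyp4a12b were at 0.38 ± 0.24 and −0.35 ± 0.22, and Susd4 at −0.32 ± 0.23. Of 21 female-biased genes only 9 passed the filter, and 0 of the 9 had those highest livers, against 16.6% of all genes. Fmo2, with the highest CPM of the 9, was at 4.48 and 37.7 CPM in Ctrl-F1 and 57.9 and 10.0 CPM in KO-F1, the order seen for Mup5, whereas Cyp2c40 was at 3.98 and 0.806 CPM in Ctrl-F1 and 10.9 and 4.45 CPM in KO-F1 (log2 fold change 1.69 ± 0.69, adjusted p = 0.510).

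Of 30 plasma proteins secreted by hepatocytes, 27 had a log2 fold change above 0, against 5680 of all 11505 genes tested. EdgeR called 0 of the 30, and their median was 0.24. An unadjusted p under 0.05 was found for 5 of them, against 9.41% of all genes. For 15 of the 30 the highest livers were Ctrl-F1 replicate 1 and KO-F1 replicate 2, against 16.6% of all genes. Apoc3, an apolipoprotein gene, had the smallest p and was at 2012 and 1904 CPM in Ctrl-F1 and 2650 and 3544 CPM in KO-F1 (0.66 ± 0.20, adjusted p = 0.484). Albumin (Alb) was at 78803 to 89339 CPM. Of the other lipocalin genes, 9 of 21 listed passed the filter and 0 were called, with a median of 0.29. C8g, a complement component, was at 0.45 ± 0.15, Apom at −0.42 ± 0.17 and Obp2a at −1.20 ± 0.50, and Rbp4, the retinol carrier, at 0.22 ± 0.19. Of 19 acute phase genes 13 had a log2 fold change above 0 and 0 were called by edgeR, with a median of 0.37. Socs3, an inhibitor of cytokine signalling, was at 3.49 and 5.04 CPM in Ctrl-F1 and 14.9 and 43.5 CPM in KO-F1 (2.77 ± 0.48, adjusted p = 0.282 in edgeR), and Socs3 was the 1 gene of the list that DESeq2 called. Fgb, a fibrinogen chain and the gene of the list with the highest CPM, was at 4237 and 3007 CPM in Ctrl-F1 and 4086 and 5791 CPM in KO-F1 (0.45 ± 0.25). For 11 of the 19 the highest livers were again Ctrl-F1 replicate 1 and KO-F1 replicate 2, against 16.6% of all genes. Leaving out 1 liver changed these counts: without Ctrl-F1 replicate 1 edgeR called 15 genes of the lists, among them Socs2, Bcl6, Selenbp2 and Moxd1, without Ctrl-F1 replicate 2 it called Fmo2, Orm3 and Socs3, and without KO-F1 replicate 1 Saa3 and Socs3. Over all genes these fits called 107 (0.905%), 51 (0.435%) and 9 (0.0755%). The plasma protein, lipocalin and acute phase lists share genes, among them Rbp4, Orm3 and Fgb, so their counts and medians are not independent of each other. The part of these groups of genes in the MUP values was not tested.

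**Figure D5:**
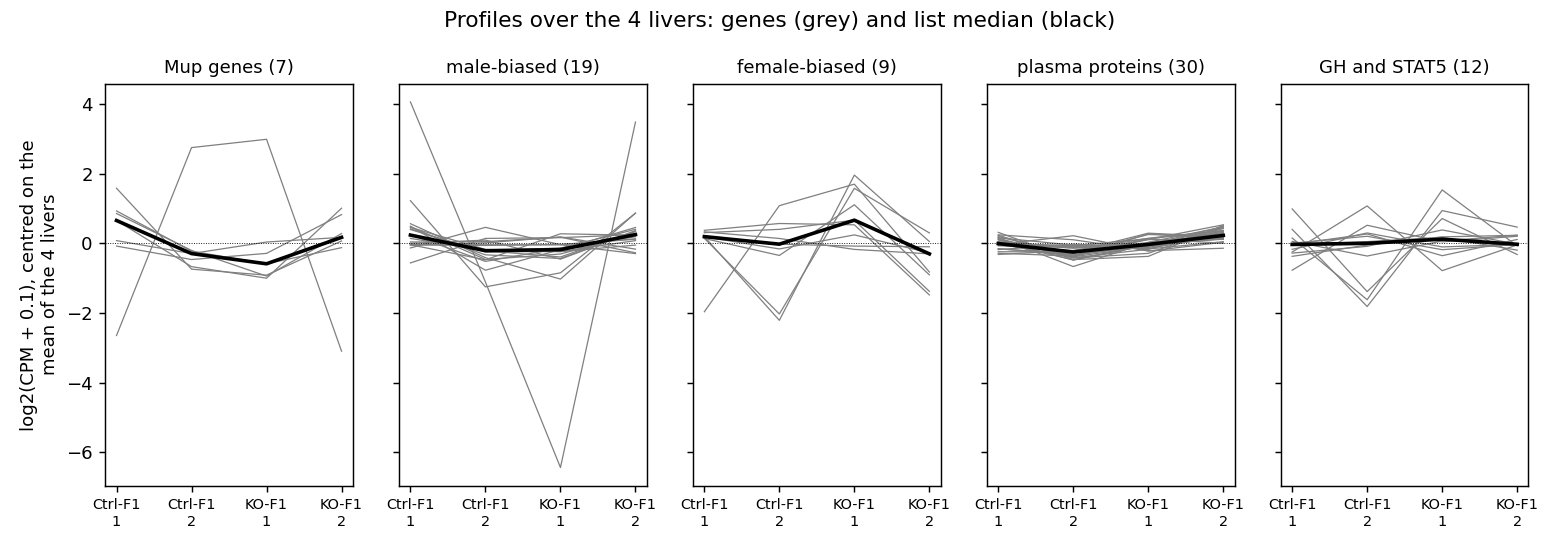
Log2(CPM + 0.1) of each gene in the 4 livers (horizontal axis), centred on its mean over them (vertical axis), for the 7 tested Mup genes and 4 lists (grey lines), with the list median in black. The median of the Mup genes and of the male-biased genes is higher in Ctrl-F1 replicate 1 and KO-F1 replicate 2, and the upward outlier in the other livers of the first panel is Mup5.

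The 5 genes with a mean of at least 100 CPM (1289 genes) whose profile over the 4 livers was most like that of the summed Mup counts were Saa4, Ppib, Pdia6, Ldha and Cpb2, with root mean square differences of centred log2 CPM of 0.04, 0.05, 0.06, 0.07 and 0.07. Saa4, a serum amyloid A gene, was at 543 and 343 CPM in Ctrl-F1 and 371 and 525 CPM in KO-F1. Ppib and Pdia6 encode folding enzymes of the endoplasmic reticulum, Ldha lactate dehydrogenase and Cpb2 a plasma carboxypeptidase. With 4 points per profile, some genes lie close to any such order. No gene at this level came near the profile of Mup5: the nearest, Cyp4a10, differed by 1.93.

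Markers of other liver cells were compared with the order of the livers. The summed Kupffer cell and macrophage markers (7 of 7 in the files above 3 counts in every liver) were at 121 and 196 CPM in Ctrl-F1 and 128 and 231 CPM in KO-F1, and the 7 endothelial markers at 67.7 and 118 CPM in Ctrl-F1 and 83.7 and 83.2 CPM in KO-F1. The summed stellate cell markers were at 120 and 178 CPM in Ctrl-F1 and 160 and 104 CPM in KO-F1, high in the same livers as Mup5. Only 3 of these 7 markers were themselves highest in those livers, against 16.6% of all genes, so the sum does not stand for each marker. The sum of hepatocyte markers was mostly Alb and hides differences between them. Of the 10, edgeR called 0, but 5 had an unadjusted p under 0.05, against 9.41% of all genes. Groups did not overlap for 7 (KO-F1 above for 3 and below for 4), against 41.6% of all genes, and the median log2 fold change was −0.09. Tat, an enzyme of tyrosine breakdown, was at 1453 and 2267 CPM in Ctrl-F1 and 1046 and 994 CPM in KO-F1 (−0.87 ± 0.23, adjusted p = 0.452 in edgeR). Cps1, of the urea cycle, was at −0.68 ± 0.18, and the gluconeogenic genes G6pc and Pck1 at −1.27 ± 0.43 and −0.60 ± 0.22, whereas Ttr, the thyroxine carrier, was at 0.52 ± 0.21. Without Ctrl-F1 replicate 1 edgeR called 2 of them, Tat and G6pc. Their part in the MUP values was not tested.

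In spermatozoa the members were hardly detected. Summed over 8 genes, both Ctrl-F1 libraries had 0 counts, KO-F1 replicates 1 and 2 had 1 and 0, and KO-F2 replicates 1 and 2 had 0 and 4. All 5 were counts of Mup4. The floor of 3 counts stood for 1.08 to 2.00 CPM in F1 and 0.262 to 0.358 CPM in KO-F2 libraries, so that a level of Mup4 such as that of the livers would lie little above it in F1 spermatozoa, while Mup3, Mup7 or Mup20 at liver levels would exceed it by far. No member passed the filter in KO-F1 against Ctrl-F1, KO-F2 against Ctrl-F1 or KO-F2 against KO-F1 spermatozoa, comparisons that share libraries with each other. Without the filter Mup4 could be tested and was not called, with adjusted p-values of 0.843, 0.798 and 0.901 in edgeR. The only other Mup symbol with counts was Mup6, with 3 counts in KO-F1 replicate 1 and 1 and 8 in KO-F2 replicates 1 and 2. Alb had at most 2 counts in any sperm library. Summed leukocyte markers were at 2186 and 3417 CPM in KO-F2 and at 54.0 to 279 CPM in F1 spermatozoa, and their part in the counts of Mup4 and Mup6 was not tested.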

How the data were processed

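The authors deposited raw counts per gene symbol: single-end reads of 75 bases were aligned to mm10 with HISAT2 2.1.0, and uniquely aligned reads were counted with featureCounts (annotation and strand setting not given in the sources used here). Each file has 23420 lines, of which 4 (2 repeated symbols) were left out. Comparisons used edgeR 4.0.16 in R 4.3.3 with TMM, filterByExpr (minimum count 10, minimum total 15), the quasi-likelihood test and Benjamini-Hochberg adjustment over all genes tested. Standard errors are the log2 fold change over the root of F. Alternatives included DESeq2 1.42.0, other filters and normalizations, the replicate block and leaving out each library. The test was also run on simulated liver counts, with 200 genes changed 4-fold and the spread taken from edgeR's own fit. That run was a check of the code and does not show how well changes in Mup genes could be found. Sequences and windows were read from RefSeq (exact matches, both strands, within the cluster). PCR copies cannot be told apart, so intervals and floors cover counting error only. The p-values and standard errors rest on the spread between 2 animals per group, or, without 1 library, that of the group left with 2. EdgeR draws this spread toward values shared over genes, so they do not give the observed spread of a single gene.

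The members, lists and tests were chosen with earlier results of these data known. The genes named were the members and their sum, from each related list and the hepatocyte markers up to 4 tested genes of smallest p and the one with the highest CPM, the 5 genes most like the sum, and all other Mup symbols. Same-numbered replicates are different animals, so the main comparisons carry no block. The ChIP-seq and embryo samples were not analysed here.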

Additional observations from a re-analysis of the deposited data

How the results depend on the processing

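No member was called in liver under any alternative but one: leaving out single libraries gave 0 to 2 members called, the 2 (Mup1 and Mup5) without Ctrl-F1 replicate 2. The replicate block, which pairs libraries by number only (correlation of their deviations −0.17), gave 0 members called, and moved Mup5 from 0.23 to −0.036 on the log2 scale. The crossed replicate block, added after seeing the data, also gave 0 members and 0 genes called, and Mup5 at −0.042. Over all genes, edgeR called 0 in the main comparison, 1 at an adjusted p under 0.05, 25 without a filter, 1 with at least 10 counts in every library, 2 with the replicate block and 4 to 107 without single libraries, and DESeq2 called 20. Of the genes in the related lists, DESeq2 called 1, and edgeR 0 to 15 without single libraries (15 without Ctrl-F1 replicate 1). Without single libraries the log2 fold changes ran from −1.92 to 0.40 for Mup1, −4.88 to 4.66 for Mup5, −1.36 to 0.00097 for Mup7, −1.14 to 1.00 for Mup20 and −0.027 to 1.10 for Mup21, and the log2 ratio of the sum from −0.19 to 0.38. The other scalings moved the ratio of the sum by less than the spread between replicates. In spermatozoa every alternative gave 0 members called. Only Mup4 had any count to test, so this outcome was nearly fixed in advance and is no check of the result. The depths allow no statement below about 3 counts. The cause of these shifts was not tested.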
